A study of Homo sapiens with 12 samples.

Results

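The genes described here encode proteins of the mitochondrial ribosome (the mitoribosome) and of the respiratory chain with ATP synthase, together with assembly factors for those complexes. They were picked out by a rule on gene symbols: symbols beginning with MRPL or MRPS and a digit, NDUF, COX4 to COX8 or COX10 to COX19, UQCR, SDHA to SDHD, SDHAF and ATP5, and the symbols CYCS and CYC1. The rule was chosen with earlier results of these data known, so comparisons with all genes are descriptive and not an independent test. Antisense and pseudogene symbols, 7 in number, were left out. The rule found 112 of the 14884 genes that could be named on the array (0.752%), each read from 1 transcript cluster, the set of probes assigned to 1 transcribed locus. They comprised 48 MRPL and 25 MRPS genes, counted below as large and small subunit by symbol, 2 assembly factors of complex I, 4 of complex II, 6 subunits of complex III, 17 subunits and 5 assembly factors of complex IV, and 3 genes of ATP synthase. The other 2, COX10-DT and NDUFA6-DT, are long non-coding RNAs transcribed divergently from a respiratory gene. Subunits of complex I and complex II, cytochrome c and most subunits of ATP synthase had no cluster named for them and were not analysed here, so the respiratory chain is read in part only.

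Cells were SK-N-BE(2), an established neuroblastoma line with MYCN amplification, grown in DMEM with 10% fetal calf serum. They were exposed for 6 h to 1 µM JQ1, to 10 nM panobinostat, to both compounds at those doses, or to vehicle, and RNA of each group was read on 3 Affymetrix Human Gene 2.0 ST arrays, 12 in all. JQ1 is a BET bromodomain inhibitor, and panobinostat inhibits histone deacetylases. A single cell line was used, so the values describe that line only, and the labels do not say whether the arrays of a group came from separate cultures. The p-values therefore rest on the scatter among these arrays alone, part of which could be technical. Values are deposited log2 signals. A change is the difference of group means on the log2 scale with its SE from limma (n = 3 arrays per group), and a gene is called higher or lower at a Benjamini-Hochberg adjusted p under 0.05 over all 14884 genes. Levels of different clusters depend on their probes and are not compared with each other.

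Mitochondria translate a small set of proteins from their own genome, all of them core subunits of the respiratory chain and ATP synthase. The mitoribosome that makes them has a large subunit (MRPL proteins) and a small subunit (MRPS proteins), and its proteins are encoded in the nucleus, made in the cytosol and imported. The symbols do not follow the structure throughout: the products of MRPS18A and MRPS30 sit in the large subunit. The respiratory complexes join those mitochondrial products to subunits made in the cytosol, so their assembly draws on both genomes.

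Promoter sequence was compared across the genes because many mitoribosomal genes were called lower in the results below. RefSeq promoters (250 bases before to 50 bases after a transcription start, build GRCh38.p14) were found for 97 of the 112 genes and for 10749 of the tested genes. Words were searched on both strands. The 9-letter word AAGATGGCG, which contains the core bound by YY1, was in 16.5% of the members' promoters and in 3.32% of those of the tested genes. Among mitoribosomal genes with a promoter it was in 10 of the 35 called lower with both compounds (28.6%) and in 2 of the 30 not called lower (6.67%). The calls of MRPL52 and MRPS30, which are among the 10, each ended under 4 alternative settings. The ETS-family word CCGGAAG was in 42.3% of the members' promoters against 17.1% of those of the tested genes, and in 37.1% of the mitoribosomal genes called lower against 53.3% of those not called lower. The NRF1 word (matched with any base at its middle position), the E-box word CACGTG and TATAAA were in 16.5%, 10.3% and 7.22% of the members' promoters, against 9.89%, 11% and 11.1% of those of the tested genes. Each was in 8.57% of the mitoribosomal genes called lower, against 20%, 16.7% and 0% of those not called lower. The split rests on calls from these same data and on few genes, and no difference between its parts was tested. A match describes the letters only and is not evidence of binding.

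The AAGATGGCG sites are shown for 6 mitoribosomal genes called lower with both compounds and for 2 members not called, MRPL38 and UQCRC1, with 10 flanking bases on each side, in the gene's own direction and with the word in capitals. The 17 sites in 16 members lay between positions -223 and 36 from the start, 11 of them after it, and 13 ran in the gene's own direction. Every site shown lies just after the transcription start. The word contains the letters ATG, and whether a site overlaps the start of the coding sequence was not examined.
MRPS18B, chr6:30617853-30617881, plus strand: ggcgtacgtcAAGATGGCGgcgtctgtat
MRPS10, chr6:42217834-42217862, minus strand: cgggaccggcAAGATGGCGgcgcggacag
MRPS18A, chr6:43687764-43687792, minus strand: taggtttttgAAGATGGCGgccctcaagg
MRPL50, chr9:101398577-101398605, minus strand: gatctcatcgAAGATGGCGgcgcgatctg
MRPL46, chr15:88467362-88467390, minus strand: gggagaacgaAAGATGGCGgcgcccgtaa
MRPL42, chr12:93467512-93467540, plus strand: ggattgaaacAAGATGGCGggttcgtggt
MRPL38, chr17:75904860-75904888, minus strand: ggccggagggAAGATGGCGgcgccctggt
UQCRC1, chr3:48609605-48609633, minus strand: ctgcagctggAAGATGGCGgcgtccgtgg

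The 150 bases before the start are shown for MRPL27 and MRPL3, which fell with each compound and with both, and for MRPL41, which rose in the same 3 comparisons. Capitals mark CCGGAAG, found at 2 places in MRPL27 and 1 in MRPL3. These genes are examples and do not stand for the set. With both compounds, 37.1% of mitoribosomal genes called lower had CCGGAAG, against 53.3% of those not called lower. In MRPL41 none of the words YY1, ETS, NRF1 and E-box named above was found in this window.
MRPL27, chr17:50373185-50373334, minus strand: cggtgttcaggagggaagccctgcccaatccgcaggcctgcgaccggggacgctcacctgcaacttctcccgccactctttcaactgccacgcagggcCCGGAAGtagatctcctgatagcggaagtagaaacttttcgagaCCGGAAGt
MRPL3, chr3:131502972-131503121, minus strand: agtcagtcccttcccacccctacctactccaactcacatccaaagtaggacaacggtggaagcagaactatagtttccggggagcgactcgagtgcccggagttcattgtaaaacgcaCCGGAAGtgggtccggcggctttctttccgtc
MRPL41, chr9:137551729-137551878, plus strand: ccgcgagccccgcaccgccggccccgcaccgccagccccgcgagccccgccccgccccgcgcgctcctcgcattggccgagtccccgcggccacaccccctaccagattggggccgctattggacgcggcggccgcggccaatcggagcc

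The median of an array over all clusters was 6.119 to 6.292, and arrays correlated at r = 0.991 to 0.995 within groups and 0.962 to 0.989 between groups. Of the 112 members, 107 had a mean signal above the 40th percentile of all genes. The SD of the members within a group had a median of 0.083, against 0.133 over all genes. At an equal change, less scatter gives more calls and more groups without overlap. The shares over all genes given below are not matched for signal or scatter. All 12 named markers of sympathetic neuroblasts lay above the median gene in vehicle, from 8.44 (TBX2) to 12.76 (STMN2). Vehicle levels of 8 mesenchymal markers ran from 6.34 (DCN) to 11.81 (LUM), and those of 2 immune and 3 epithelial markers from 6.31 to 8.40. The mean level of the 12 neuroblast markers was 10.60 to 10.62 in JQ1 arrays, 10.22 to 10.28 in panobinostat arrays, 9.94 to 9.99 in combination arrays and 10.69 to 10.73 in vehicle arrays. Of these 12 markers, 1 was called higher and 3 lower with JQ1, 9 lower with panobinostat and 12 lower with both, where 9.47%, 14.8% and 19.5% of all genes were called lower. The 8 mesenchymal markers averaged 8.60 to 8.68 in JQ1 arrays, 8.44 to 8.61 in panobinostat arrays, 8.40 to 8.51 in combination arrays and 8.68 to 8.80 in vehicle arrays, with 1 called higher and 1 lower with JQ1, 1 lower with panobinostat and 4 lower with both. The part of these marker changes in the results below was not tested, and in bulk RNA fewer cells of a type and less RNA per cell cannot be told apart. The names of 54 members are shared by pseudogene copies in RefSeq, whose transcripts the probes may also bind.

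As a set, the mitoribosomal genes had lower signal in every treated group than in vehicle. The 37 respiratory chain and ATP synthase genes under the symbol rule showed no such separation. This contrast does not extend to the 27 respiratory assembly factors outside the rule, given further below. Their median change was -0.08 with JQ1, -0.13 with panobinostat and -0.21 with both. The mean signal of the 73 mitoribosomal genes was 9.22, 9.18 and 9.19 in the JQ1 arrays, 9.16, 9.14 and 9.20 in the panobinostat arrays, 9.04, 9.10 and 9.13 in the combination arrays, and 9.41, 9.33 and 9.33 in the vehicle arrays. No treated array reached the lowest vehicle array. Over the 37 respiratory chain and ATP synthase genes the mean was 8.59, 8.56 and 8.52 in JQ1 arrays, 8.50, 8.56 and 8.58 in panobinostat arrays, 8.50, 8.61 and 8.59 in combination arrays, and 8.63, 8.53 and 8.52 in vehicle arrays, and the groups overlapped. Vehicle replicate 1 was the highest of the vehicle arrays on both means, and combination replicate 1 was the lowest of the combination arrays on both. Each of these arrays widens a fall of the combination from vehicle.

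**Figure D1:**
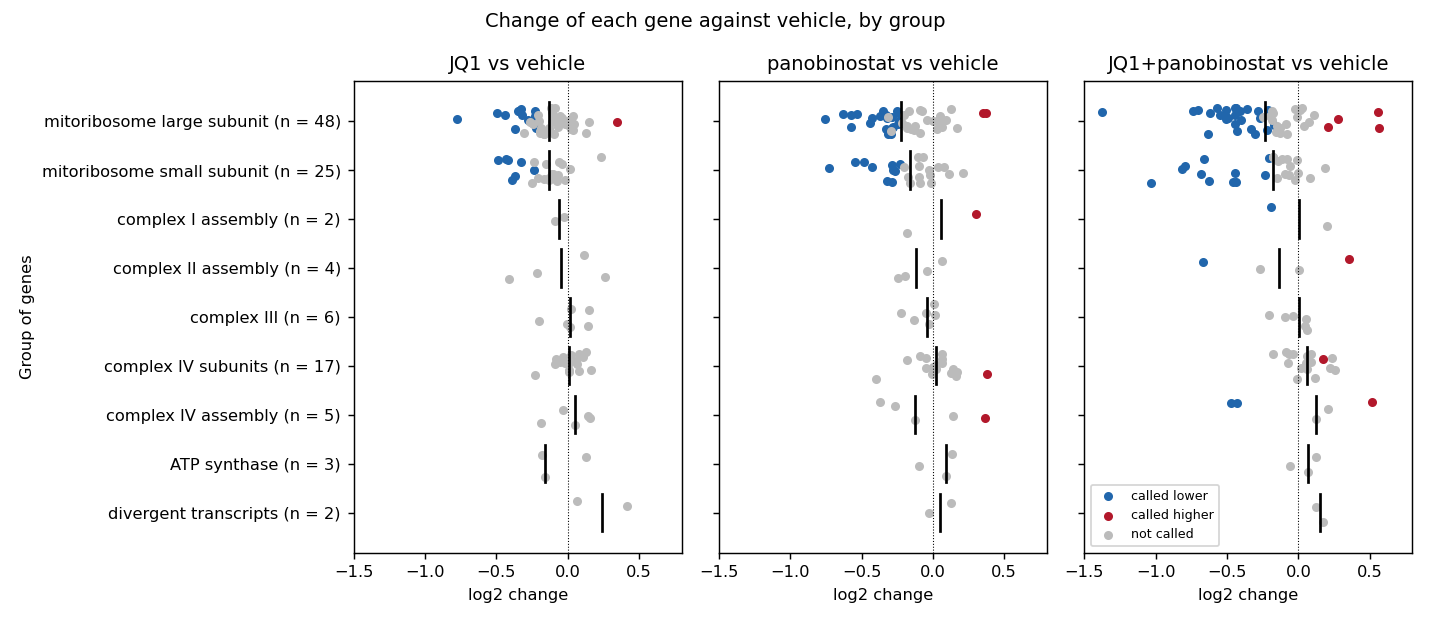
Log2 change of each gene (points) against vehicle, for JQ1, panobinostat and both compounds, by group of genes; the black bar is the median of the group and colour marks genes called at an adjusted p under 0.05. Blue points lie almost all in the rows of the large and small mitoribosomal subunits, whose medians sit left of 0 in all 3 panels, while complex III and complex IV subunits lie around 0.

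With JQ1, 1 member was called higher and 20 lower, where 8.18% of all genes were called higher and 9.47% lower (17.6% either way). All 21 calls were mitoribosomal: 13 of 48 large-subunit and 7 of 25 small-subunit genes were lower, 27.4% of the 73. The median change was -0.13 over the 73 mitoribosomal genes and 0.01 over the 37 respiratory genes, of which none was called, against 0.01 over all genes. In 42 of the 73 (57.5%) all 3 JQ1 arrays lay below all 3 vehicle arrays, as in 16.9% of all genes. The count of 20 depended on single arrays, falling to 9 without JQ1 replicate 2, 11 without JQ1 replicate 3 or vehicle replicate 3, 12 without JQ1 replicate 1 and 13 without vehicle replicate 1, where 2 members were called higher.

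With panobinostat, 5 members were called higher and 32 lower, against 14.5% and 14.8% of all genes (29.3% either way). The 32 lower were again all mitoribosomal, 22 of 48 in the large subunit and 10 of 25 in the small, 43.8% of the 73. Their median change was -0.20, against 0.00 over the respiratory genes and 0.03 over all genes. All 3 panobinostat arrays lay below all vehicle arrays in 44 of the 73 genes (60.3%), as in 19.9% of all genes. Of the 37 respiratory genes, 3 were called higher (NDUFAF7, COX14 and COX7A2L) and none lower. Without vehicle replicate 2 or 3, or without panobinostat replicate 2 or 3, the 5 genes called higher became 3.

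With both compounds, 7 members were called higher and 41 lower, against 18.2% and 19.5% of all genes (37.7% either way). Mitoribosomal genes made up 37 of the 41, with 26 of 48 large-subunit and 11 of 25 small-subunit genes lower (50.7% of the 73), and 4 were higher. Their median change was -0.21, against 0.05 over the respiratory genes and 0.02 over all genes. In 48 of the 73 (65.8%) all combination arrays lay below all vehicle arrays, as in 23.5% of all genes. Among the 37 respiratory genes 3 were called higher and 4 lower, of which 6 encode assembly factors and 1 a subunit, COX6A1.

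**Figure D2:**
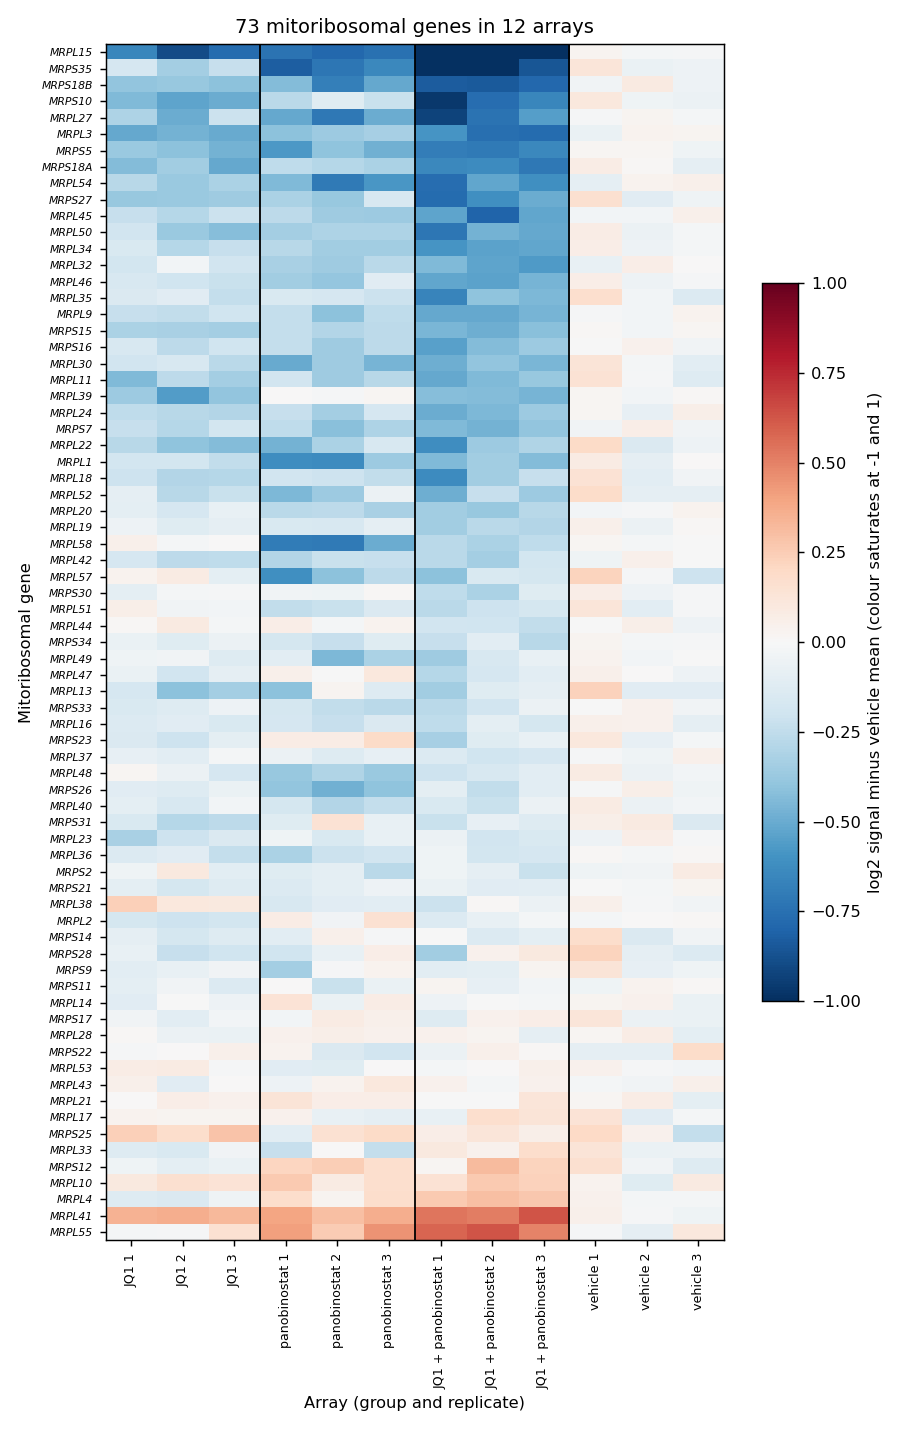
Log2 signal minus the vehicle mean for the 73 mitoribosomal genes (rows, ordered by their change with both compounds) in each of the 12 arrays (columns, grouped by treatment); colour saturates at -1 and 1. Most rows in the upper part are blue in all 9 treated arrays and darkest in the 3 combination arrays, and the bottom rows MRPL41 and MRPL55 are red in the combination.

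In the large subunit MRPL15 fell the most with each compound and with both. It read 10.48, 10.24 and 10.37 in JQ1 arrays, 10.40, 10.35 and 10.39 in panobinostat arrays, 9.64, 9.80 and 9.83 in combination arrays, and 11.17, 11.12 and 11.12 in vehicle arrays. Each single compound brought it below every vehicle array, and the combination arrays lay below all the others. Its change was -0.77 ± 0.08 with JQ1 (limma, adjusted p = 6.25e-05), -0.76 ± 0.08 with panobinostat (adjusted p = 2.8e-05), while both compounds gave -1.38 ± 0.08 (adjusted p = 1.18e-07), the last being 2.60-fold lower.

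MRPL3, which reaches into the peptidyl transferase region of the large subunit, read 10.92, 10.96 and 10.93 in JQ1 arrays, 11.02, 11.07 and 11.10 in panobinostat arrays, 10.84, 10.68 and 10.66 in combination arrays, and 11.37, 11.47 and 11.46 in vehicle arrays. The 4 groups did not overlap. Its changes were -0.50 ± 0.07 (limma, adjusted p = 0.000413) with JQ1, -0.37 ± 0.07 (adjusted p = 0.00141) with panobinostat and -0.71 ± 0.07 (adjusted p = 6e-06) with both. MRPL27, also a protein near the peptidyl transferase centre, read 8.44, 8.25 and 8.53 in JQ1 arrays, 8.23, 8.03 and 8.25 in panobinostat arrays, 7.82, 8.01 and 8.20 in combination arrays, and 8.73, 8.78 and 8.73 in vehicle arrays. Its vehicle arrays stood above all 9 treated arrays, among which the groups overlapped in part. The change with both was -0.74 ± 0.11 (limma, adjusted p = 0.000143). With JQ1 it was -0.34, a call that ended with array medians centred and without any 1 of 8 arrays (adjusted p up to 0.163).

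MRPL54, a large-subunit protein, changed by -0.32 ± 0.09 with JQ1, -0.58 ± 0.09 with panobinostat and -0.63 ± 0.09 with both, all called lower. MRPL11, at the base of the stalk where translation factors bind, changed by -0.35 ± 0.08, -0.28 ± 0.08 and -0.44 ± 0.08 in the same order, also all called. The JQ1 call of MRPL54 ended without vehicle replicate 2 or 3 or any JQ1 array (adjusted p up to 0.0861). For MRPL11 the JQ1 call ended without JQ1 replicate 1 (adjusted p up to 0.0628) and the panobinostat call without vehicle replicate 1 or 2 or panobinostat replicate 2 or 3 (adjusted p up to 0.104). MRPL53, the large-subunit gene with the highest mean signal among those not called with both, read 10.24, 10.26 and 10.30 in combination arrays against 10.30, 10.24 and 10.23 in vehicle arrays, a difference of 0.01 with a 95% interval of -0.13 to 0.15.

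MRPL39 and MRPL58, both of the large subunit, were called with 1 of the compounds and not with the other, and the direct difference between the compounds was not tested. MRPL39 read 8.64, 8.45 and 8.61 in JQ1 arrays, 9.01, 8.99 and 9.02 in panobinostat arrays, 8.58, 8.57 and 8.54 in combination arrays, and 9.02, 8.97 and 9.02 in vehicle arrays. JQ1 and combination arrays were low, and panobinostat arrays lay among those of vehicle. The change was -0.44 ± 0.07 with JQ1 (limma, adjusted p = 0.000735), 0.00 with panobinostat (95% interval -0.14 to 0.14) and -0.44 ± 0.07 with both (adjusted p = 0.000179). MRPL58, a peptidyl-tRNA hydrolase within the large subunit that releases stalled chains, read 10.83, 10.75 and 10.78 in JQ1 arrays, 10.08, 10.07 and 10.28 in panobinostat arrays, 10.50, 10.46 and 10.52 in combination arrays, and 10.80, 10.76 and 10.77 in vehicle arrays. Here panobinostat arrays were the lowest and combination arrays lay between them and vehicle, without overlap. Its change was -0.63 ± 0.07 with panobinostat (limma, adjusted p = 4.43e-05), -0.28 ± 0.07 with both (adjusted p = 0.00635) and 0.01 with JQ1 (95% interval -0.14 to 0.16).

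The large-subunit genes that rose were few. MRPL41 read 8.37, 8.38 and 8.35 in JQ1 arrays, 8.42, 8.32 and 8.38 in panobinostat arrays, 8.56, 8.53 and 8.65 in combination arrays, and 8.07, 8.01 and 7.98 in vehicle arrays. All treated arrays stood above those of vehicle, and the combination arrays above the rest. Its change was 0.34 ± 0.06 with JQ1 (limma, adjusted p = 0.00246), 0.35 ± 0.06 with panobinostat (adjusted p = 0.00106), while both compounds gave 0.56 ± 0.06 (adjusted p = 1.95e-05), the last being 1.47-fold higher. MRPL55 read 8.20, 8.21 and 8.37 in JQ1 arrays, 8.63, 8.47 and 8.67 in panobinostat arrays, 8.80, 8.85 and 8.71 in combination arrays, and 8.21, 8.13 and 8.32 in vehicle arrays. JQ1 arrays overlapped those of vehicle, and the other treated arrays lay above both. It changed by 0.37 ± 0.08 with panobinostat (limma, adjusted p = 0.00508), while both compounds gave 0.57 ± 0.08 (adjusted p = 0.000161). MRPL4, a protein of the nascent chain exit tunnel, rose by 0.28 ± 0.07 with both (limma, adjusted p = 0.00456), and MRPL10, which carries the stalk, by 0.21 ± 0.07 (adjusted p = 0.0435). The MRPL10 call ended without vehicle replicate 1 or 2, without combination replicate 2 or 3, and without any of 4 of the JQ1 and panobinostat arrays that enter only through the shared spread.

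**Figure D3:**
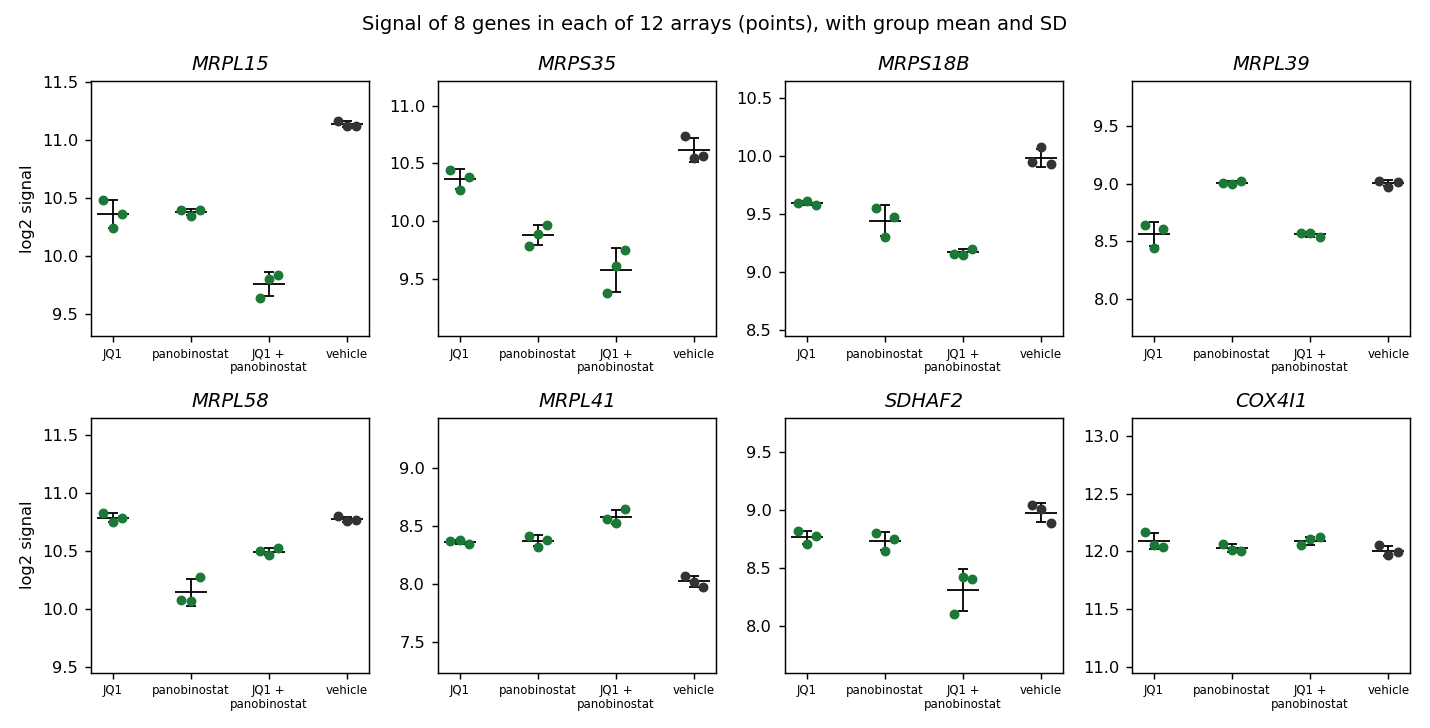
Log2 signal of 8 genes in each array (points) with the group mean and SD (bars), groups from left to right JQ1, panobinostat, both compounds and vehicle; each panel has its own axis range of the same width. MRPL15, MRPS35 and MRPS18B are lowest with both compounds, MRPL39 is low in the 2 groups given JQ1, MRPL58 is lowest with panobinostat alone, MRPL41 is highest with both, SDHAF2 is lowest with both, and COX4I1 stays between 11.97 and 12.17 in all arrays.

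Among MRPS genes MRPS35 fell the most with panobinostat and with both. It read 10.44, 10.28 and 10.38 in JQ1 arrays, 9.79, 9.89 and 9.97 in panobinostat arrays, 9.38, 9.61 and 9.76 in combination arrays, and 10.73, 10.55 and 10.56 in vehicle arrays. The groups did not overlap, with vehicle above JQ1, JQ1 above panobinostat, and the combination lowest. Its change was -0.73 ± 0.10 with panobinostat (limma, adjusted p = 0.000208), while both compounds gave -1.03 ± 0.10 (adjusted p = 6.88e-06, 2.04-fold lower). With JQ1 the change was -0.25 ± 0.10 and did not pass the test (adjusted p = 0.12).

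MRPS18B read 9.59, 9.61 and 9.58 in JQ1 arrays, 9.56, 9.30 and 9.47 in panobinostat arrays, 9.16, 9.15 and 9.20 in combination arrays, and 9.95, 10.07 and 9.93 in vehicle arrays. Every treated array lay below the vehicle arrays, and the combination arrays lay below the single compounds. Its change was -0.39 ± 0.07 with JQ1 (limma, adjusted p = 0.00353), -0.54 ± 0.07 with panobinostat (adjusted p = 0.000222), while both compounds gave -0.82 ± 0.07 (adjusted p = 4.39e-06). The gene has 7 clusters with identical values, so these count as 1 reading. MRPS18A, its paralogue, read 9.29, 9.38 and 9.21 in JQ1 arrays, 9.47, 9.44 and 9.41 in panobinostat arrays, 9.08, 9.10 and 9.01 in combination arrays, and 9.80, 9.73 and 9.64 in vehicle arrays. It changed by -0.43 ± 0.07, -0.29 ± 0.07 and -0.66 ± 0.07 with JQ1, panobinostat and both, all called lower, and the 4 groups did not overlap.

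MRPS10, of the head of the small subunit, read 9.81, 9.73 and 9.76 in JQ1 arrays, 9.99, 10.13 and 10.03 in panobinostat arrays, 9.29, 9.49 and 9.61 in combination arrays, and 10.36, 10.21 and 10.20 in vehicle arrays. JQ1 and combination arrays were low, while panobinostat arrays lay just below those of vehicle. Its change was -0.49 ± 0.09 with JQ1 (limma, adjusted p = 0.0024), -0.20 ± 0.09 with panobinostat, which did not pass the test (adjusted p = 0.104), and -0.79 ± 0.09 with both (adjusted p = 1.92e-05). MRPS5, a protein near the mRNA entry of the small subunit, changed by -0.42 ± 0.07 with JQ1, -0.48 ± 0.07 with panobinostat and -0.68 ± 0.07 with both. MRPS27, a pentatricopeptide repeat protein, changed by -0.37 ± 0.09, -0.28 ± 0.09 and -0.63 ± 0.09, and both genes were called lower in all 3 comparisons. The MRPS27 calls ended without vehicle replicate 1 or JQ1 replicate 1 or 2 for JQ1 (adjusted p up to 0.0603) and without any 1 of 8 arrays for panobinostat (adjusted p up to 0.146).

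MRPS26 was called lower with panobinostat alone and not in the other 2 comparisons with vehicle. It read 8.77, 8.76 and 8.82 in JQ1 arrays, 8.49, 8.40 and 8.48 in panobinostat arrays, 8.79, 8.64 and 8.78 in combination arrays, and 8.87, 8.94 and 8.84 in vehicle arrays. The panobinostat arrays stood apart below the other 9. Its change was -0.43 ± 0.07 with panobinostat (limma, adjusted p = 0.000457), with -0.10 ± 0.07 with JQ1 and -0.15 ± 0.07 with both not passing. No small-subunit gene was called higher against vehicle. MRPS12, which lines the decoding centre, was higher by 0.21 ± 0.09 with panobinostat and 0.19 ± 0.09 with both without passing the test. With both it passed under quantile normalization (limma, adjusted p = 0.0151) and without vehicle or combination replicate 1. MRPS21, the small-subunit gene with the highest signal among those not called, had a change of -0.10 with both (95% interval -0.22 to 0.03) and was called only with eBayes trend (limma, adjusted p = 0.02). For MRPS16 a dimmer second cluster gave 0.00 with JQ1, -0.50 with panobinostat and -0.34 with both, where the cluster used gave -0.21, -0.28 and -0.45.

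In the respiratory chain, the median changes of complex III and complex IV subunits against vehicle lay between -0.04 and 0.06. Single genes ran further: with panobinostat, complex IV subunits ran from -0.40 to 0.38, and complex III genes reached -0.23. Complex III passes electrons from ubiquinol to cytochrome c, and none of its 6 genes was called against vehicle. Of all genes, 17.6% were called either way with JQ1, 29.3% with panobinostat and 37.7% with both. A set of 6 genes is too small to set against those shares. UQCRC2, a core protein of complex III, read 11.73, 11.67 and 11.75 in JQ1 arrays, 11.70, 11.76 and 11.73 in panobinostat arrays, 11.84, 11.74 and 11.77 in combination arrays, and 11.71, 11.77 and 11.69 in vehicle arrays. The 4 groups overlapped, and the change with both was 0.06 (95% interval -0.07 to 0.19). CYC1, the cytochrome c1 heme protein, changed by 0.02 with JQ1, -0.13 with panobinostat and -0.09 with both (95% interval -0.24 to 0.06), and UQCRC1 by 0.15, -0.03 and 0.06. UQCRH and UQCRHL encode near-identical sequences, and their clusters may share transcripts.

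Complex IV reduces oxygen to water, and 1 of its 17 subunit genes was called with panobinostat, 1 with both and none with JQ1. These are 5.88%, 5.88% and 0%, against 29.3%, 37.7% and 17.6% of all genes in the same order. COX4I1, a ubiquitous nuclear-encoded subunit, read 12.17, 12.06 and 12.04 in JQ1 arrays, 12.07, 12.01 and 12.01 in panobinostat arrays, 12.06, 12.10 and 12.12 in combination arrays, and 12.06, 11.97 and 11.99 in vehicle arrays. The treated arrays lay among or just above those of vehicle, and the change with both was 0.09 (95% interval -0.05 to 0.22). COX5B changed by -0.05 with JQ1, -0.05 with panobinostat and 0.06 with both, none past the test. COX7C had the largest fall among these subunits, -0.40 with panobinostat, and was not called. Its panobinostat arrays read 7.90, 8.52 and 8.61, against 9.01, 8.60 and 8.61 in vehicle arrays. The subunit gene called with panobinostat was COX7A2L, a factor in joining complex III and complex IV into supercomplexes. It read 7.62, 7.45 and 7.39 in JQ1 arrays, 7.72, 7.85 and 7.95 in panobinostat arrays, 7.56, 7.83 and 7.69 in combination arrays, and 7.57, 7.34 and 7.46 in vehicle arrays. Only the panobinostat arrays lay wholly above vehicle, with a change of 0.38 ± 0.10 (limma, adjusted p = 0.0116). Its change with both passed under quantile normalization (adjusted p = 0.0154), without dim genes (adjusted p = 0.0451) and without combination replicate 1 (adjusted p = 0.0449). COX6A1 was called with both compounds at 0.17 ± 0.06 (limma, adjusted p = 0.0412), from 12.96 in each combination array against 12.75, 12.82 and 12.79 in vehicle arrays. That cluster is far brighter than the gene's other cluster (means of 12.86 and 5.82), 6 pseudogenes carry the gene's name, and the call ended under quantile normalization (0.14, adjusted p = 0.0989) and without any array other than JQ1 replicate 3 (adjusted p up to 0.114). The 5 members under the 40th percentile of signal, COX6A2, COX6B2, COX7A1, COX7B2 and COX8C, are subunit isoforms known from muscle, heart or testis, and none was called.

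Assembly factors moved in both directions. SDHAF2, which attaches FAD to the catalytic subunit of complex II, read 8.82, 8.71 and 8.78 in JQ1 arrays, 8.80, 8.65 and 8.75 in panobinostat arrays, 8.10, 8.43 and 8.41 in combination arrays, and 9.05, 9.01 and 8.89 in vehicle arrays. Combination arrays lay below all the others, and single-compound arrays lay between them and vehicle. The change was -0.67 ± 0.09 with both (limma, adjusted p = 0.000116), and -0.21 ± 0.09 with JQ1 and -0.25 ± 0.09 with panobinostat did not pass. SDHAF1, which helps insert iron-sulfur clusters into complex II, read 7.88, 8.05 and 7.93 in combination arrays against 7.55, 7.69 and 7.57 in vehicle arrays, a rise of 0.35 ± 0.08 (limma, adjusted p = 0.00465). SDHAF3 changed by -0.41 ± 0.15 with JQ1 (adjusted p = 0.089) and -0.27 ± 0.15 with both, with arrays spread from 7.87 to 8.50 in vehicle.

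Among complex IV assembly factors, COX14, which couples synthesis of the mitochondrially encoded COX1 protein to assembly, read 7.11, 6.99 and 6.97 in JQ1 arrays, 7.12, 7.20 and 7.37 in panobinostat arrays, 7.17, 7.54 and 7.45 in combination arrays, and 7.03, 6.81 and 6.76 in vehicle arrays. Panobinostat and combination arrays stood above those of vehicle. It rose by 0.36 ± 0.11 with panobinostat (limma, adjusted p = 0.0255), while both compounds gave 0.52 ± 0.11 (adjusted p = 0.0024), and the panobinostat call ended without vehicle replicate 2 or 3 or panobinostat replicate 2 or 3 (adjusted p up to 0.0951). COX18, which inserts the COX2 protein into the inner membrane, read 7.68, 7.96 and 7.76 in combination arrays against 8.45, 8.31 and 8.07 in vehicle arrays, a change of -0.47 ± 0.11 (limma, adjusted p = 0.00459). COX17, a copper chaperone, read 7.12, 7.34 and 7.38 in combination arrays against 8.02, 7.53 and 7.59 in vehicle arrays (-0.43, adjusted p = 0.0364 by limma). Vehicle replicate 1 was well above the other 2, and without it the change was -0.28 and not called (limma, adjusted p = 0.145). The COX17 call also ended without combination replicate 1 or 2, with the replicate block and on the compared arrays alone. COX11, which delivers copper to complex IV, changed by 0.12 (95% interval -0.01 to 0.25), and was called higher under quantile normalization (limma, adjusted p = 0.0362).

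NDUFAF7, a methyltransferase acting on a complex I subunit, read 9.19, 9.23 and 9.28 in panobinostat arrays against 9.06, 8.83 and 8.91 in vehicle arrays, and rose by 0.30 ± 0.09 (limma, adjusted p = 0.0205). That call ended without vehicle replicate 2 or 3 or panobinostat replicate 2 or 3 (adjusted p up to 0.0797). With both compounds NDUFAF7 changed by 0.20 and was not called, but passed under quantile normalization (limma, adjusted p = 0.00826), without dim genes (adjusted p = 0.0485) and without vehicle or combination replicate 1 (adjusted p = 0.0404 and 0.0191). NDUFAF8 read 9.50, 9.65 and 9.62 in combination arrays against 9.73, 9.82 and 9.79 in vehicle arrays, a change of -0.19 ± 0.07 (limma, adjusted p = 0.0362). The NDUFAF8 call ended under quantile normalization and without vehicle replicate 2 or 3 or combination replicate 1 or 3 (adjusted p up to 0.133). ATP5MK, a small membrane subunit of ATP synthase, changed by 0.13, 0.09 and 0.12 with JQ1, panobinostat and both, and neither it nor ATP5MJ or the inhibitor ATP5IF1 was called. Of the divergent transcripts, COX10-DT varied widely, from 8.06 to 8.72 in vehicle, and was not called. A second, dimmer cluster of NDUFA6-DT rose by 0.89 with JQ1 (limma, adjusted p = 0.000163) and 0.75 with both (adjusted p = 0.000122), while the cluster used changed by 0.07 and 0.17. The p-values of the dimmer cluster are from a separate fit over all 16098 named clusters and were adjusted over those.

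The combination was then set against each compound alone at the same doses and time. Against JQ1, 4 members were called higher and 26 lower, where 11.7% of all genes were called higher and 13.9% lower (25.6% either way). Of these, 24 lower and 3 higher were mitoribosomal, with a median change over the 73 of -0.10 against 0.01 over all genes. MRPS35 changed by -0.78 ± 0.10 (limma, adjusted p = 0.000167), MRPL15 by -0.61 ± 0.08 (adjusted p = 0.00016), SDHAF2 by -0.46 ± 0.09 (adjusted p = 0.00353) and COX18 by -0.44 ± 0.11 (adjusted p = 0.0118). MRPL55 was higher by 0.53 ± 0.08 (limma, adjusted p = 0.000643), MRPL4 by 0.39 ± 0.07 (adjusted p = 0.00106), COX14 by 0.36 ± 0.11 (adjusted p = 0.0313) and MRPL41 by 0.21 ± 0.06 (adjusted p = 0.0238). MRPL39 did not differ beyond its error, with a 95% interval of -0.15 to 0.14. The count of 26 was 12 without JQ1 replicate 1, 15 without JQ1 replicate 3 and 14 without combination replicate 1, and quantile normalization gave 9 higher and 23 lower. The count of 4 higher was 2 without JQ1 replicate 2 or 3 or combination replicate 3, and 7 without combination replicate 1. Calls were lost for COX18 without JQ1 replicate 1, for COX14 without JQ1 replicate 2 or 3 or combination replicate 2 or 3, and for MRPL41 without any JQ1 array or combination replicate 3.

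Against panobinostat, 4 members were called higher and 15 lower, where 6.13% of all genes were called higher and 8.55% lower (14.7% either way). Mitoribosomal genes were 14 of the 15, with a median change over the 73 of -0.05 against -0.01 over all genes. MRPL15 changed by -0.62 ± 0.08 (limma, adjusted p = 0.000373), MRPS10 by -0.59 ± 0.09 (adjusted p = 0.00113), MRPL39 by -0.45 ± 0.07 (adjusted p = 0.00103) and SDHAF2 by -0.42 ± 0.09 (adjusted p = 0.0105). Higher with both compounds than with panobinostat were MRPL58 by 0.35 ± 0.07 (limma, adjusted p = 0.00541), SDHAF1 by 0.29 ± 0.08 (adjusted p = 0.0363), MRPS26 by 0.28 ± 0.07 (adjusted p = 0.0151) and MRPL41 by 0.20 ± 0.06 (adjusted p = 0.0456). MRPS35 differed by -0.30 ± 0.10 without passing (adjusted p = 0.0682). The split of 4 higher and 15 lower became 7 and 9 with array medians centred and 7 and 20 under quantile normalization. The count of 15 was 6 without panobinostat replicate 1 or 3, 8 without combination replicate 1 and 7 without combination replicate 2. The count of 4 higher was 2 without panobinostat replicate 1 or 3 or combination replicate 2 or 3. Calls were lost for SDHAF1 in those same 4 fits, for MRPS26 without panobinostat replicate 2 or combination replicate 1 or 3, and for MRPL41 without any array other than vehicle replicate 1. On the compared arrays alone SDHAF2 (adjusted p = 0.0505), SDHAF1, MRPS26 and MRPL41 were not called.

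**Figure D4:**
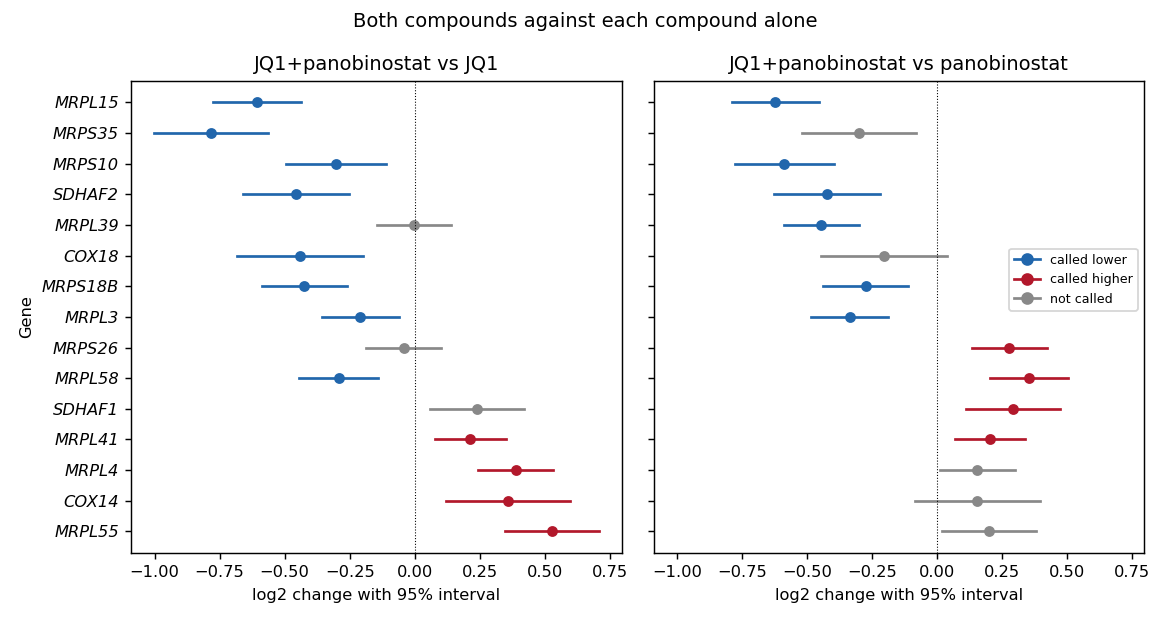
Log2 change of 15 genes with both compounds against JQ1 alone (left) and against panobinostat alone (right), with 95% intervals from limma; colour marks the call. MRPL15 lies left of 0 in both panels, MRPL39 is at 0 on the left and at -0.45 on the right, and MRPL58 is left of 0 against JQ1 and right of 0 against panobinostat.

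The interaction sets the combined change against the 2 single changes added together. It was called by limma for none of the 112 members (0 higher and 0 lower), where 0.309% of all genes were called higher and 0.45% lower (0.759% either way). At an unadjusted p under 0.05 there were 10 of the 112 members, a smaller share than the 2037 of all 14884 genes. The lowest adjusted p among the members was 0.0914, for MRPS26 (0.38 ± 0.09). MRPL58 had 0.34 ± 0.10 (adjusted p = 0.141). A fit in which the variance follows the signal level called both, MRPL58 at an adjusted p of 0.0291 and MRPS26 at 0.0476, and leaving out dim genes called MRPS26 at 0.0325. MRPL15, the gene with the largest change, had an interaction of 0.15 ± 0.11 (adjusted p = 0.606).

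Genes that work beside these proteins were read from lists of named pathway members. Of 25 mitochondrial translation and mitoribosome assembly factors, 4 were higher and 5 lower with JQ1, 4 and 9 with panobinostat, and 4 and 13 with both, with a median change of -0.21 with both. Called lower were 20% with JQ1, 36% with panobinostat and 52% with both, against 9.47%, 14.8% and 19.5% of all genes, while 16% were higher in each, against 8.18%, 14.5% and 18.2%. MPV17L2, a mitoribosome assembly protein, moved opposite to most, rising by 0.47 ± 0.07 with JQ1, 0.85 ± 0.07 with panobinostat and 1.24 ± 0.07 with both (limma, adjusted p = 1.93e-07). MRM1, which methylates the large-subunit rRNA, changed by -1.02 ± 0.08 with both (limma, adjusted p = 1.48e-06), and FASTKD2, an RNA-binding protein needed for that rRNA, by -1.00 ± 0.11 (adjusted p = 1.53e-05). Of 17 regulators of mitochondrial biogenesis, a list that also holds FASTKD2, 2 were higher and 6 lower with both (11.8% and 35.3%, against 18.2% and 19.5% of all genes), including FASTKD1 (-0.65 ± 0.13) and the nuclear receptor ESRRG (-0.57 ± 0.08).

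Of 27 respiratory assembly factors outside the symbol rule, 4 were higher and 12 lower with both (14.8% and 44.4%, against 18.2% and 19.5% of all genes), with a median of -0.21. COA6, which helps place copper in complex IV, changed by -0.79 ± 0.15 with JQ1, -0.96 ± 0.15 with panobinostat and -1.46 ± 0.15 with both (limma, adjusted p = 9.14e-06). COA7 changed by -1.09 ± 0.09 with both and TACO1, the translational activator of the mitochondrially encoded COX1 protein, by -1.05 ± 0.09, and both were also called lower with each compound. Of 23 TOMM and TIMM import genes, 1 was higher and 6 lower with both (4.35% and 26.1%), and the 30.4% called either way was below the 37.7% of all genes. The 6 included TOMM40L (-1.29 ± 0.10), TIMM21 (-1.11 ± 0.09) and TIMM9 (-0.88 ± 0.10).

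Citric acid cycle and pyruvate dehydrogenase genes had 5 of 10 higher and 2 lower with both (50% and 20%, against 18.2% and 19.5% of all genes), with a median of 0.21. IDH3A, of the NAD-dependent isocitrate dehydrogenase, rose by 0.41 ± 0.06 with JQ1, 0.60 ± 0.06 with panobinostat and 0.99 ± 0.06 with both (limma, adjusted p = 2.7e-07). OGDH, of the oxoglutarate dehydrogenase, rose by 0.76 ± 0.08 with JQ1 and 0.87 ± 0.08 with both, with -0.01 ± 0.08 with panobinostat, and DLD rose by 0.49 ± 0.09 with both. Cytosolic ribosomal protein genes, listed by symbol, gave 2 higher and 3 lower of 54 with both, with a median of 0.02. With JQ1 they gave 0 calls of 54, where 17.6% of all genes were called. The 3 lower were RPL7L1 (-0.92 ± 0.09), RPL22 (-0.44 ± 0.08) and RPL22L1 (-0.39 ± 0.09). RPL7L1 and RPL22L1 are named as ribosomal protein-like, and a list made by symbol does not separate such genes from ribosomal proteins. In set-wide counts with both compounds, 50.7% of mitoribosomal genes were called lower, against 19.5% of all genes. The share was 10.8% of the 37 respiratory genes under the symbol rule and 5.56% of cytosolic ribosomal protein genes. It was 52% of translation and mitoribosome assembly factors, 44.4% of respiratory assembly factors outside the rule and 35.3% of biogenesis regulators. Import genes had 26.1% and citric acid cycle genes 20%. A raised share called lower was thus not particular to the mitoribosome.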

How the data were processed

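Total RNA was labelled as biotin cRNA and hybridised to 1 array per sample, per the labels' protocols. The deposited table gives 1 value per transcript cluster and array, taken here as log2 signal because values run as log2 of scanner intensities do; the log base is not stated. Per the submitters' processing notes MAS5 and affy were used; what each did, how arrays were normalised and which genome build was used is not given in the sources used here. Without detection calls, the height of a signal over background cannot be read, and precision is limited by the number of arrays.

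GEO's probe annotation named 16098 of 53617 clusters with 1 gene each. Where a symbol had several clusters the brightest on average was used, leaving 14884 genes. No value was normalised again and no gene was removed. Groups were fitted together in R 4.3.3 with limma 3.58.1 (lmFit, eBayes, no replicate term, 8 residual degrees of freedom), and two-sided p-values were Benjamini-Hochberg adjusted over all 14884 genes in each of 6 comparisons. With 3 against 3 arrays an exact permutation p is at least 0.1, so none was used. The fit was tested on simulated data.

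The members and lists were chosen with earlier results of these data known. Named genes are the largest called rises and falls of each comparison (6 each way against vehicle, 4 each way between treatments), in each group the largest called change and the brightest gene not called, and a few core genes; COX17, MRPL44, MRPS16, NDUFA6-DT, the isoforms at low signal and the genes of neighbouring lists were named after their values were seen. None of the mitochondrial aminoacyl-tRNA synthetases listed had a named cluster. Same-numbered arrays were not consistently alike: their deviations from group means correlated at -0.693 to 0.236, with 4 of 18 pairs over 0.1. A value as low as -0.693 is not an absence of relation. Whether arrays of the same number were handled together cannot be read from these values. Alternatives tried were centred medians, quantile normalization, a filter on dim genes, the mean of all clusters, eBayes with trend, the replicate number as a block, fits on the compared arrays only, and leaving out each array. Sequences are from RefSeq (GRCh38.p14).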

Additional observations from a re-analysis of the deposited data

How the results depend on the processing

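Against vehicle, the counts of members called lower with panobinostat and with both compounds, and of those called higher with both, stayed within 1.5 times of the reported count under every alternative run. Leaving out 1 array at a time gave 9 to 22 lower and 1 to 2 higher with JQ1, 23 to 35 lower and 3 to 6 higher with panobinostat, 34 to 40 lower and 5 to 10 higher with both, 12 to 26 lower and 2 to 7 higher for both against JQ1, 6 to 15 lower and 2 to 4 higher for both against panobinostat, and 0 for the interaction in either direction. The replicate block gave 12 lower with JQ1, 2 higher for both against JQ1, and 2 higher and 7 lower for both against panobinostat. By deviations from group means, no array correlated best with another of its own number (0 of 12). Fits on the compared arrays alone gave 12 lower with JQ1, and 1 higher and 5 lower for both against panobinostat. JQ1 had 2 members higher with the mean of all clusters and with eBayes trend. For both against JQ1, 9 were higher with quantile normalization and without dim genes, and 7 with trend. For both against panobinostat, 7 were higher with centred medians, quantile normalization and without dim genes, while 9 were lower with centred medians and 24 without dim genes. The interaction gave 1 member without dim genes and 2 with trend. Uncalled changes with both were followed across alternatives only for the genes picked out for naming before their values were seen. Those that turned negative were COX10-DT (range -0.033 to 0.298, lowest without vehicle replicate 2), MRPL53 (-0.007 to 0.032, at -0.002 without vehicle replicate 3 and lowest without combination replicate 3) and COX5B (-0.009 to 0.13, lowest without vehicle replicate 3). The cause of these shifts was not tested, except that fits on fewer arrays or genes have fewer degrees of freedom or tests.

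Of 155 calls of members over 5 comparisons, 64 were lost under 1 or more alternatives: 12 of 21 with JQ1, 12 of 37 with panobinostat, 10 of 48 with both, 17 of 30 for both against JQ1 and 13 of 19 for both against panobinostat. Of the 155, 1 changed sign, MRPL44 with both, at 0.02 with the mean of all clusters. With 3 arrays a group and no background estimate, changes of a size near 0.2 on the log2 scale sit at the edge of what the test can call.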
